A study of Mus musculus with 16 samples.

Results

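Interferon-stimulated genes are the genes that cells switch on when they sense interferon, the secreted antiviral signal. The set described here holds 35 of the 17737 genes in the count table of a mouse heart diet study, chosen by symbol. All 35 were found in the table and all 35 passed the filter on low counts, as did 13381 genes in all. By role they comprise 20 antiviral effectors, 4 transcription factors, 4 sensors of foreign or misplaced RNA and DNA, and 7 interferon-inducible GTPases.

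Male C57BL/6 mice, an inbred laboratory strain, were 6 weeks old when they were assigned at random to 1 of 4 diets, which they ate for 6 months. The groups are NIA, a primate diet; UW, another primate diet; mNIA, a modified NIA diet whose sucrose and fat were matched to UW; and chow, a standard rodent diet. Each group has 4 animals, each library is a single animal, and all animals share strain, sex and housing; the labels name no genetic change, drug or infection in any group. Tissue from the lower ventricles yielded the RNA, which was required to have an integrity number above 7.0 and was read as poly-A selected, strand-specific libraries in 75-base single reads. Groups follow the diets named in the sample titles. The count table uses letter codes, MNC for the group titled NIA, NC for UW, UC for mNIA and CC for chow. If N, MN and U in them stand for NIA, modified NIA and UW, the codes assign the 3 primate formulas differently from the titles: the group titled NIA would be mNIA, that titled UW would be NIA, and that titled mNIA would be UW. Which is right is not settled; the mean of the 3 primate formulas against chow does not depend on it, and each comparison of a single primate formula does.

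In outline, a type I interferon binds the receptor pair Ifnar1 and Ifnar2, whose kinases Jak1 and Tyk2 activate Stat2. With Irf9 it takes part in the complex ISGF3, which binds the interferon-stimulated response element (ISRE) in the promoters of effector genes. Interferon gamma uses Ifngr1 and Ifngr2 and acts on the gamma-activated sequence (GAS), through which Irf1 and many of the GTPases are induced. The heart keeps a low tonic level of these transcripts in the absence of infection, in cardiomyocytes, endothelium and resident immune cells alike.

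Many promoters of the set hold the letters of these elements. RefSeq (GRCm38.p6) gave 29 windows of 250 bases before to 50 bases after a start, for 25 of the 35 genes. The ISRE core, GAAA and GAAA separated by any 2 bases and searched on both strands, was present for 16 of the 25 genes, or 64.0%, against 3.99% of 27025 genes with a window and 3.78% of 10470 tested genes. The palindromic form TTCNNNGAA of the GAS, searched the same way, was present in 8 of the 25, or 32.0%, against 9.55% and 8.25%. The ISRE core was found for 8 of 14 effectors, 1 of 4 transcription factors, 2 of 2 sensors and 5 of 5 GTPases, and the GAS for 5, 1, 0 and 2 of them. Matches of the 2 motifs can overlap, as in Bst2. A match is a description of letters, not a shown binding site. The following upstream stretches show the ISRE core in single, overlapping and repeated form in genes whose values are given below, and the GAS in Irf1; each runs 5′ to 3′ on the gene's own strand, and capitals mark the motif (overlapping matches are merged).
Stat2, chr10:128270261-128270300, plus strand: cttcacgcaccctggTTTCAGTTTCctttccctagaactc
Rsad2, chr12:26456548-26456587, minus strand: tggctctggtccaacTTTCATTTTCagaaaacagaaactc
Bst2, chr8:71537572-71537617, minus strand: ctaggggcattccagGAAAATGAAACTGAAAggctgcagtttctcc
Isg15, chr4:156200860-156200911, minus strand: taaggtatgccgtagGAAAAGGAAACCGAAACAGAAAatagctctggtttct
Ifit1, chr19:34640770-34640828, plus strand: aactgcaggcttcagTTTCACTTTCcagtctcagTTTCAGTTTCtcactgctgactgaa
Gbp2, chr3:142620589-142620628, plus strand: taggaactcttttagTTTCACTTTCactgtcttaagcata
Igtp, chr11:58199507-58199546, plus strand: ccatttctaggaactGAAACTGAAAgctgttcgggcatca
Irf1, chr11:53769909-53769947, plus strand: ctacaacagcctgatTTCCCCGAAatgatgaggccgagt

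The libraries are unequal in depth and quality, which touches each result that follows. Total counts were 2278250, 3143385 and 5735110 in NIA replicates 4, 1 and 3 and 63005490 in NIA replicate 2, 4880235 to 6583532 in UW, 3870480 to 6544172 in mNIA and 4263827 to 5953964 in chow. The limma-voom quality weight, which is low for a library whose genes scatter far from their group, was 0.16 in NIA replicate 4, 0.301 in NIA replicate 1, 0.36 in mNIA replicate 2, 0.234 in chow replicate 3, 0.58 in UW replicate 1 and at least 1.12 in the others. Cardiomyocyte markers were abundant in every library, with Myh6, the alpha myosin heavy chain, at 5360 to 39800 CPM (counts scaled to a common library size). The scaling used edgeR's trimmed mean of M values (TMM). In bulk tissue, fewer cells of a type and less RNA per cell cannot be told apart.

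The 35 genes were expressed at a modest level in all diets. Per kilobase of exon, their mean over the 16 libraries ran from 0.493 to 17.7 CPM with a median of 5.2. The highest per-kilobase level was that of Bst2 (tetherin, which holds budding virions to the cell surface) at 17.7 CPM per kilobase, followed by the GTPases Iigp1 at 12.8, Gbp2 at 12.2 and Igtp at 11.4, and by Rsad2 (viperin, an enzyme that makes a chain-terminating nucleotide) at 10.1. The lowest per-kilobase levels were those of Mx1, a dynamin-like antiviral GTPase, at 0.493, of Oas3, an oligoadenylate synthetase, at 0.498 and of Zbp1, a sensor of Z-form nucleic acid, at 0.617. The GTPases as a group had a median of 7.9 CPM per kilobase, the effectors 4.86, the transcription factors 4.83 and the sensors 1.49.

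No gene of the set differed between diets by the test used, edgeR's quasi-likelihood test with Benjamini-Hochberg adjustment over 13381 genes at an adjusted p of 0.05. In NIA, UW and mNIA each against chow, 0 of the 35 were called, beside 0% of all tested genes in the first pair, 0% in the second and 0.00747% in the third. In the mean of the 3 primate formulas against chow, in UW against NIA, in mNIA against NIA, in mNIA against UW and in the joint test of any diet difference, 0 of the 35 were called, beside 0% of all genes in each. At an unadjusted p under 0.05, 1 of the 35 passed in NIA against chow (8.7% of all genes), 1 in UW against NIA (13.9%) and 0 in the other 6 tests (0.986% to 8.91%). Limma-voom with quality weights called 0 of the 35 in all 8 tests, while it called 14.8% of all genes in mNIA against NIA and for any diet difference, 6.85% in UW against NIA, 0.209% in NIA against chow, 0.0299% in the formula mean against chow and 0.00747% in each of the other 3. DESeq2 called 0 of the set too, but its own filter gave an adjusted p to 1 of the 35 in NIA against chow and to 18 in UW against NIA, where it called 4.24% and 5.06% of the genes with one. In the other 6 tests all 35 had an adjusted p, and DESeq2 called 1.3% of all genes for any diet difference, 0.0224% in mNIA against NIA, 0.00748% in UW against chow and in mNIA against UW, and 0% in the rest. The diet pairs that include chow share its 4 animals.

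The fitted differences from chow were mostly small and mostly negative, and their median over the set turned positive without chow replicate 3. In the mean of the 3 primate formulas minus chow, 30 of the 35 fitted log2 fold changes were below 0 and 5 above, with a median of -0.23 and a range of -0.74 to 0.23, where 49.6% of all tested genes were below 0 and their median was 0.0023. Refitted without chow replicate 3, 12 of the 35 were below 0 and 23 above, and the median was 0.090. Of all genes 43.7% were then below 0, and their median was 0.033. The same turn was seen for each formula, with medians over the 35 genes of -0.27 in NIA, -0.24 in UW and -0.26 in mNIA against chow with all animals, and of 0.077, 0.091 and 0.067 without that animal. Chow replicate 3 was the highest chow animal in the set, while the highest animal of each other diet was kept. Leaving out chow replicate 3 alone lowers chow relative to the formulas in the set, so the turn cannot decide on a diet difference. Between the formulas the medians with all animals were 0.075 for UW minus NIA, 0.057 for mNIA minus NIA and -0.0070 for mNIA minus UW. Several medians also changed sign with all animals when limma-voom quality weights were used. They were then 0.22 in NIA minus chow, 0.044 in the formula mean minus chow, -0.27 in UW minus NIA and -0.26 in mNIA minus NIA. By role, the GTPases did not turn in the formula mean minus chow. With all animals 6 of the 7 were below 0 (median -0.23), and 6 without chow replicate 3 (median -0.092). The effectors below 0 went from 18 of 20 to 4, the transcription factors from 4 of 4 to 1 and the sensors from 2 of 4 to 1.

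Calls in the set appeared when the 4 libraries of quality weight under 0.5 were left out together, a setting added after the data were seen, which keeps NIA replicates 2 and 3 alone in their diet. By the median over the set of log2 CPM minus the gene's mean, it drops the lowest NIA animals (-0.49 and -0.62). It also drops the highest of mNIA (0.43) and of chow (0.79). That choice lowers mNIA and chow relative to NIA in the set, so the calls that follow cannot decide on a diet difference. In mNIA against NIA 7 of the 35 genes then passed, or 20.0% of the set beside 23.1% of all 13781 genes tested, so the set was called no more often than genes at large. All 7 were lower in mNIA: Oas2 (log2 fold change -0.92, edgeR adjusted p = 0.00889), Stat2 (-0.80), Xaf1 (-0.88), Irf1 (-0.77), Bst2 (-0.81), Rsad2 (-0.87) and Irf9 (-0.63). In NIA against chow Oas2 passed at 0.98, higher in NIA (edgeR adjusted p = 0.0439), 1 gene of the 35 or 2.86%, beside 1.63% of all genes. With all animals the fitted mNIA minus NIA differences were 0.028 (SE 0.539) for Oas2, 0.00018 (SE 0.501) for Stat2, 0.057 (SE 0.458) for Bst2 and 0.11 (SE 0.374) for Irf1, all far within 1 SE of 0, and that of Oas2 in NIA minus chow was -0.41 (SE 0.532).

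**Figure D1:**
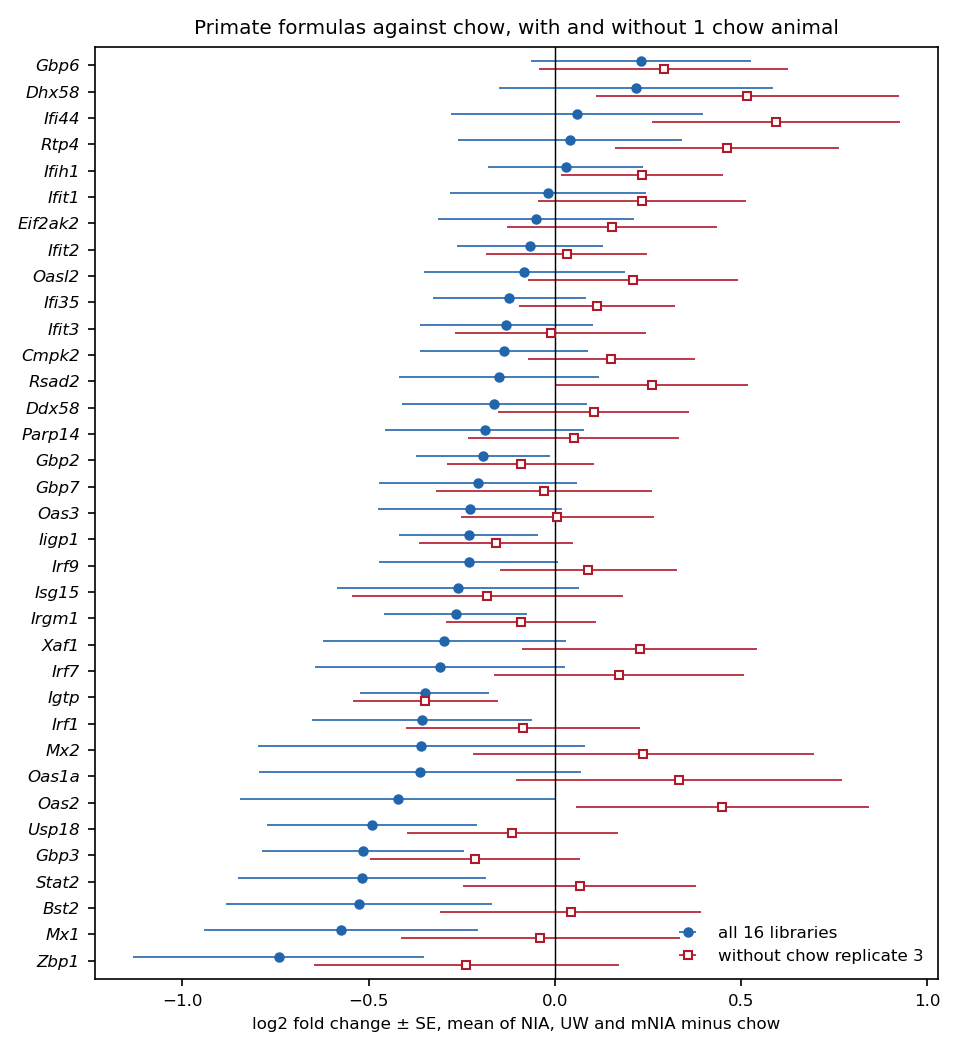
Log2 fold change of each of the 35 genes in the mean of NIA, UW and mNIA minus chow (x axis; points are fitted values and bars their standard errors), with all 16 libraries (filled) and without chow replicate 3 (open). Of the 35 points, 30 lie below 0 with all libraries and 12 without that animal; Oas2 lies at -0.42 with all libraries and at 0.45 without that animal, and Igtp at -0.35 in both.

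Chow replicate 3 carried the highest expression of the set among the 16 animals. A departure is defined here as a library's log2 CPM (TMM-scaled, prior count 2) minus the mean of the other 3 animals of its diet. The median departure of the 35 genes in chow replicate 3 was 0.90, beside 0.049 over all tested genes. All 35 departures were above 0, against 52.7% of all genes, and 14 exceeded 1 log2 unit, or 40.0% against 10.8%. It was the highest of the chow animals for 34 of the 35, against 43.6% of all genes, the exception being Igtp, and the highest of all 16 animals for 24 of the 35, against 21.3%. This animal stands alone, so its difference has no replicate check, and the departures were not tested. An outlier rule run gene by gene on these same values is given among the results flagged for a closer look. The same library also had 8.75% of all genes more than 1 log2 unit below the mean of the other chow animals, so its departures were wide in both directions while those of the set went one way.

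**Figure D2:**
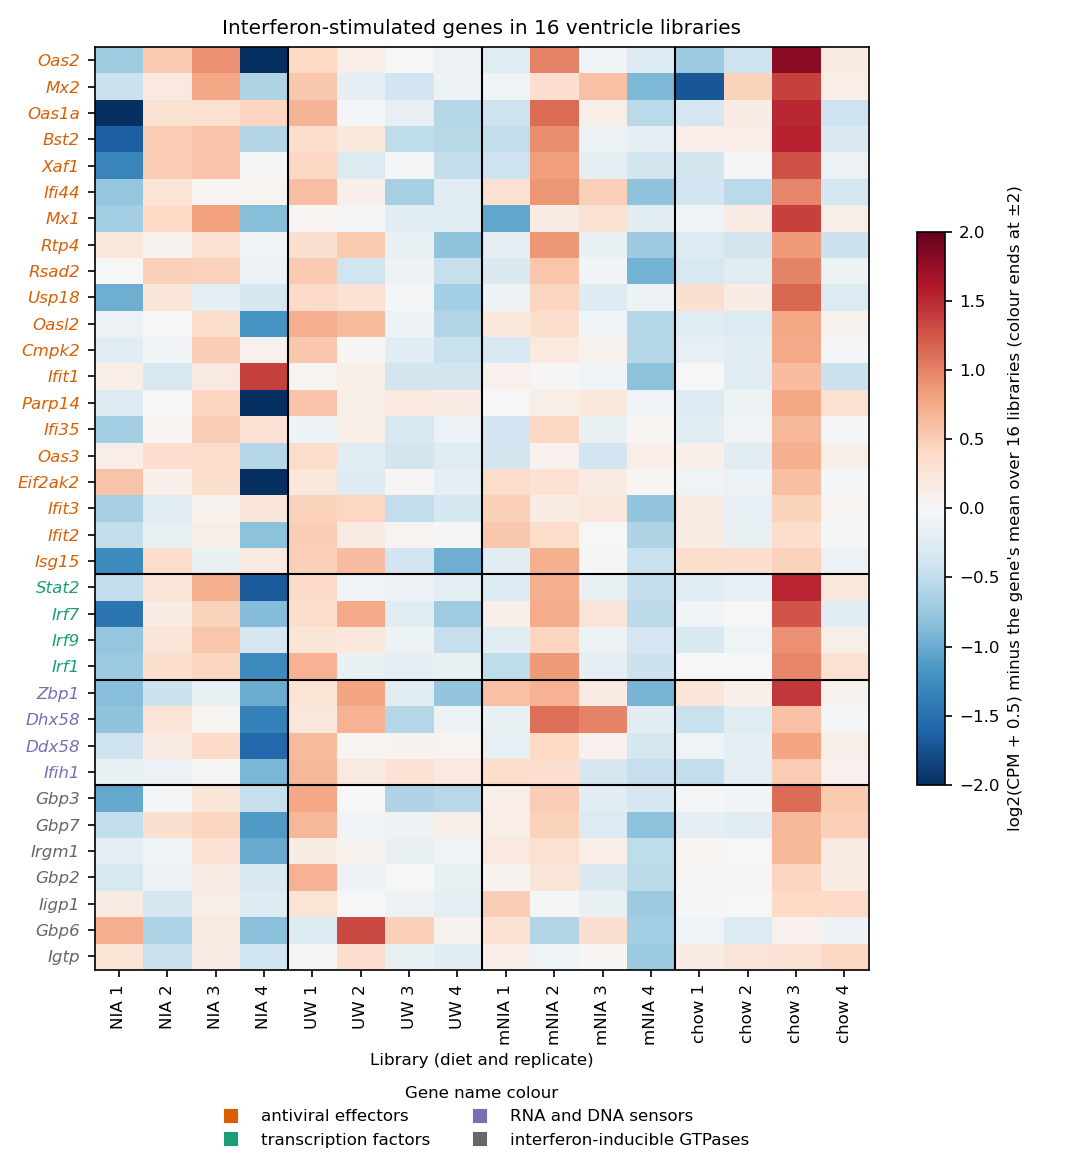
Level of the 35 genes (rows, grouped and coloured by role) in the 16 libraries (columns, by diet), as log2(CPM + 0.5) minus the gene's mean over 16 libraries; red is above and blue below that mean, and colours end at 2. Chow replicate 3 is the highest of 16 in 24 rows, and the palest rows of that column are among the GTPases at the bottom.

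All 4 transcription factors were high in chow replicate 3, with departures of 0.87 to 1.59. Stat2 (chr10:128270498-128292854 on mm10, plus strand), the ISGF3 subunit specific to type I and type III interferon, stood at 20.1, 34.2, 47.0 and 8.53 CPM in NIA, 37.2, 27.5, 26.1 and 25.2 in UW, 23.4, 46.8, 25.6 and 20.3 in mNIA, and 24.6, 25.4, 83 and 33.1 in chow, in replicate order. The 83 CPM of chow replicate 3 was the highest of the 16, a departure of 1.59, and the formula animals overlapped the other chow animals. Its means were 27.5 ± 16.7 CPM in NIA, 29.0 ± 5.57 in UW, 29.0 ± 12.0 in mNIA and 41.5 ± 27.9 in chow (SD, n = 4 each). For the mean of the formulas minus chow its log2 fold change was -0.52 (SE 0.333, edgeR adjusted p = 0.938) with all animals and 0.067 (SE 0.313) without chow replicate 3.

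Irf7 (chr7:141263183-141266425, minus strand), the factor that amplifies interferon production, had 5.03, 16.3, 20.4 and 7.82 CPM in NIA, 19.2, 25.1, 12.5 and 8.76 in UW, 15.8, 24.9, 17.6 and 10.1 in mNIA, and 14.2, 14.6, 35.7 and 12.5 in chow. Chow replicate 3 was again the highest of 16, at a departure of 1.36, and the other 3 chow animals lay between 12.5 and 14.6 CPM. Irf9 (chr14:55603985-55610031, plus strand), the DNA-binding part of ISGF3, had 12.6, 26.1, 32.3 and 17.1 CPM in NIA, 25.9, 25.3, 20.4 and 15.7 in UW, 18.6, 29.5, 20.3 and 17.1 in mNIA, and 17.6, 20.6, 41.4 and 23.8 in chow. Irf1 (chr11:53770014-53778375, plus strand), the early factor induced through the GAS, had 17.6, 38.4, 40.3 and 12.1 CPM in NIA, 48.6, 27.3, 26.1 and 26.9 in UW, 20.9, 54.1, 26.1 and 22 in mNIA, and 30.1, 30.0, 59.1 and 37.0 in chow. For all 4 factors the highest animal was NIA replicate 3 in NIA, mNIA replicate 2 in mNIA and chow replicate 3 in chow, while in UW it was replicate 1 for Stat2, Irf9 and Irf1 and replicate 2 for Irf7. Against chow the 4 fitted differences of the formula mean were -0.23 to -0.52, each with an edgeR adjusted p of 0.938.

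**Figure D3:**
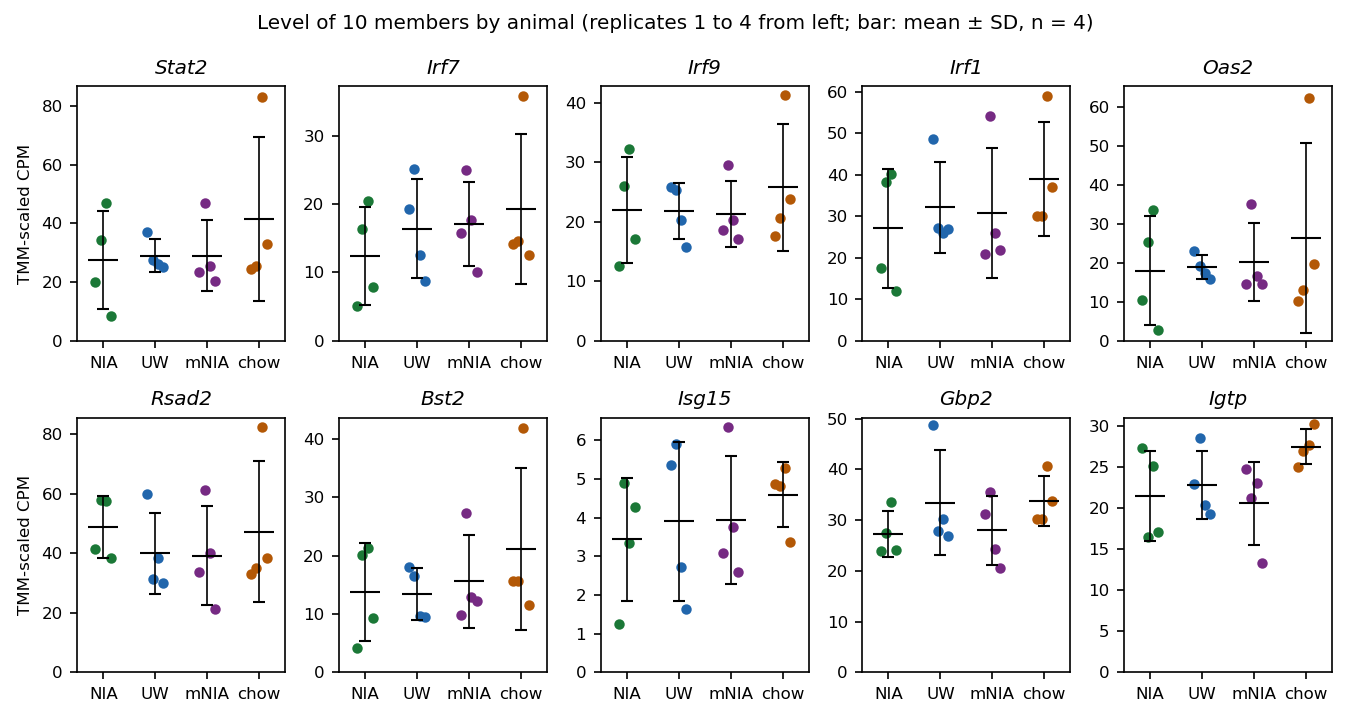
TMM-scaled CPM (y axis, linear from 0) of 10 genes in each animal, replicates 1 to 4 from left within each diet, with the mean and SD of the 4 animals as bars. Chow replicate 3 is the highest point of its diet in each panel except Igtp, and in Stat2 it reads 83 CPM against 24.6 to 33.1 in the other chow animals.

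The oligoadenylate synthetases make the signal that activates the RNA-degrading enzyme RNase L, and Oas2 among them departed furthest of the set. Oas2 (chr5:120730333-120749849, minus strand) had 10.5, 25.3, 33.5 and 2.84 CPM in NIA, 23.2, 19.2, 17.5 and 16 in UW, 14.7, 35.1, 16.7 and 14.5 in mNIA, and 10.3, 13, 62.4 and 19.8 in chow. Chow replicate 3 departed by 2.15, the largest value of the set, and NIA replicate 4 by -2.78, so the extremes of Oas2 lay in different diets. Oas1a (chr5:120896257-120907526, minus strand) had 0.419, 4.52, 4.52 and 4.98 CPM in NIA, 6.03, 3.46, 3.12 and 2.23 in UW, 2.54, 8.29, 3.90 and 2.29 in mNIA, and 2.73, 4.01, 11 and 2.53 in chow. Its 0.419 CPM in NIA replicate 1 corresponds to 1 read, and its departure in chow replicate 3 was 1.79. Oas3 and the related Oasl2 departed less in chow replicate 3, by 0.75 and 0.93. Oas1a, Oas2 and Oas3 lie within 1 stretch of chromosome 5, Oasl2 lies apart on the same chromosome, and the family members resemble each other, and how reads shared by near-identical copies were divided is not given in the sources used here.

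The Mx genes code for dynamin-like GTPases that trap viral nucleocapsids. The Mx1 allele of C57BL/6 mice codes for a defective protein. Mx2 (chr16:97536081-97560902, plus strand) had 1.68, 2.86, 4.52 and 1.42 CPM in NIA, 3.75, 2.04, 1.75 and 2.23 in UW, 2.26, 3.17, 3.90 and 1.07 in mNIA, and 0.390, 3.53, 7.07 and 2.70 in chow. Its departure of 1.96 in chow replicate 3 includes chow replicate 1, which was the lowest of the 16 at 0.390 CPM, or 2 reads. Mx1 had 5.10 CPM in chow replicate 3 against 1.56 to 1.93 in the other chow animals, and 0.564 to 3.35 in the formula animals.

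Bst2 (chr8:71534256-71537473, minus strand) had 4.19, 20.2, 21.3 and 9.25 CPM in NIA, 18.1, 16.5, 9.73 and 9.50 in UW, 9.88, 27.3, 13 and 12.2 in mNIA, and 15.6, 15.6, 41.8 and 11.5 in chow. Rsad2 (chr12:26442743-26456453, minus strand) had 41.5, 57.8, 57.6 and 38.4 CPM in NIA, 59.8, 31.4, 38.6 and 30.1 in UW, 33.9, 61.2, 40.1 and 21.4 in mNIA, and 33.2, 35, 82.6 and 38.5 in chow. Both were highest in chow replicate 3, by departures of 1.56 and 1.21, and the other 3 chow animals lay inside the range of the formula animals. Cmpk2, a mitochondrial nucleotide kinase whose gene (chr12:26469215-26479838, plus strand) lies next to Rsad2 on the opposite strand, moved alongside it, with 21.8 CPM in chow replicate 3 against 10.8 to 12.3 in the other chow animals. Rsad2 had counts with fractions in 14 of the 16 libraries, a mark of reads divided between features, so its level is less certain than that of Cmpk2, whose counts were whole in all 16.

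Xaf1 (chr11:72301629-72313734, plus strand), which binds the apoptosis inhibitor XIAP, had 5.45, 20.8, 21.6 and 14.2 CPM in NIA, 19.3, 11.8, 14.2 and 10.2 in UW, 10.7, 26.1, 12.6 and 11.1 in mNIA, and 11.1, 14.1, 35.7 and 13.3 in chow. Usp18 (chr6:121245906-121270918, plus strand), the protease that removes Isg15 from proteins and restrains the type I receptor, had 2.10, 5.52, 4.02 and 3.56 CPM in NIA, 6.16, 5.70, 4.48 and 2.67 in UW, 4.23, 6.34, 3.75 and 4.27 in mNIA, and 5.86, 5.14, 10.8 and 3.72 in chow. Both were highest of 16 in chow replicate 3. Ifi44 (chr3:151730923-151749960, minus strand), an interferon-induced protein that limits virus replication, had 3.77, 8.33, 7.03 and 7.11 CPM in NIA, 10.6, 7.33, 4.09 and 5.79 in UW, 8.47, 12.9, 9.68 and 3.66 in mNIA, and 5.07, 4.50, 13.9 and 5.24 in chow. Rtp4 (chr16:23609919-23614223, plus strand), a chaperone of membrane receptors, had 12.2, 11, 12.9 and 9.96 CPM in NIA, 13.1, 15.3, 9.35 and 5.79 in UW, 9.03, 19.5, 9.52 and 6.10 in mNIA, and 8.59, 8.03, 19.2 and 7.6 in chow. In Ifi44 and Rtp4 mNIA replicate 2 came close to or just above chow replicate 3, at 12.9 and 19.5 CPM.

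The remaining effectors departed less. Isg15, the ubiquitin-like protein that is conjugated to targets during a response, had 5.30 CPM in chow replicate 3 against 3.38 to 4.88 in the other chow animals, a departure of 0.29. In the formula animals it ran from 1.26 to 6.34 CPM. The Ifit proteins bind viral RNA: Ifit1 departed by 0.84 in chow replicate 3, Ifit3 by 0.44 and Ifit2 by 0.36. Ifit1 was highest of 16 in NIA replicate 4, at 39.1 CPM against 11.9 to 16.9 in the other NIA animals, which is the reverse of most of the set in that library. Eif2ak2 (PKR, the kinase that halts translation on double-stranded RNA), Parp14 (an ADP-ribosyltransferase) and Ifi35 departed by 0.69, 0.80 and 0.78.

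The sensors were among the least expressed of the set. Zbp1 (chr2:173206612-173218923, minus strand), which triggers necroptosis on binding Z-form nucleic acid, had 0.839, 1.29, 1.67 and 0.711 CPM in NIA, 2.41, 3.67, 1.56 and 0.891 in UW, 3.10, 3.41, 2.19 and 0.763 in mNIA, and 2.34, 2.09, 5.89 and 2.03 in chow. All 4 NIA animals lay below all 4 chow animals, as for 1.91% of all tested genes; it was the 1 gene of the 35 to do so. Its log2 fold change for NIA minus chow was -1.26 (SE 0.519), with an unadjusted p of 0.0263 and an edgeR adjusted p of 0.493. The NIA values rest on 2 reads in replicate 1 and 1 read in replicate 4.

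Ifih1 (MDA5, chr2:62595793-62646256, minus strand), the sensor of long double-stranded RNA, had 26.5, 18.9, 20.4 and 19.1 CPM in UW and 15.1, 15.2, 16.9 and 8.53 in NIA, a separation seen for 3.29% of all genes. Its log2 fold change for UW minus NIA was 0.56 (SE 0.257), with an unadjusted p of 0.0422 and an edgeR adjusted p of 0.338. In mNIA it had 21.4, 21.0, 13.1 and 11.9 CPM, and in chow 11.7, 14.4, 23.8 and 17.7, both overlapping UW. Ddx58 (RIG-I, the sensor of uncapped RNA ends) and its regulator Dhx58 (LGP2) departed by 0.86 and 0.90 in chow replicate 3, and Dhx58 was highest of 16 in mNIA replicate 2 at 6.09 CPM.

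The interferon-inducible GTPases, some of which attack the membranes around intracellular parasites and bacteria, departed least in chow replicate 3. Their median departure there was 0.37, with 0 of 7 over 1 log2 unit, beside 1.03 for the effectors (10 of 20 over 1), 1.19 for the transcription factors (3 of 4) and 0.88 for the sensors (1 of 4). Igtp (Irgm3, chr11:58199556-58207593, plus strand) had 24.8, 21.2, 23.1 and 13.3 CPM in mNIA and 25, 27.0, 27.7 and 30.2 CPM in chow, where it was nearly level. All 4 mNIA animals lay below all 4 chow animals in Igtp, as for 1.26% of all genes, with a log2 fold change of -0.42 (SE 0.217, unadjusted p = 0.0675, edgeR adjusted p = 0.983). In NIA it had 27.3, 16.5, 25.1 and 17.1 CPM and in UW 23, 28.5, 20.4 and 19.3, both overlapping chow.

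Gbp3 was the GTPase that departed most in chow replicate 3, by 0.97, with 49.5 CPM against 21.8 to 32.8 in the other chow animals. Gbp6 (chr5:105270702-105293700, minus strand) followed other animals than the rest of the set: it was highest of 16 in UW replicate 2 at 109.0 CPM, stood at 72.6 in NIA replicate 1 and at 36.0 to 46.1 in chow. Gbp7 and Irgm1 departed by 0.64 and 0.60 in chow replicate 3, Gbp2 by 0.37 and Iigp1 (Irga6) by 0.29. Irgm1 and Iigp1 had fractional counts in 8 and 7 libraries, and members of the Gbp and Irg families resemble each other, so reads may have been divided among copies.

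**Figure D4:**
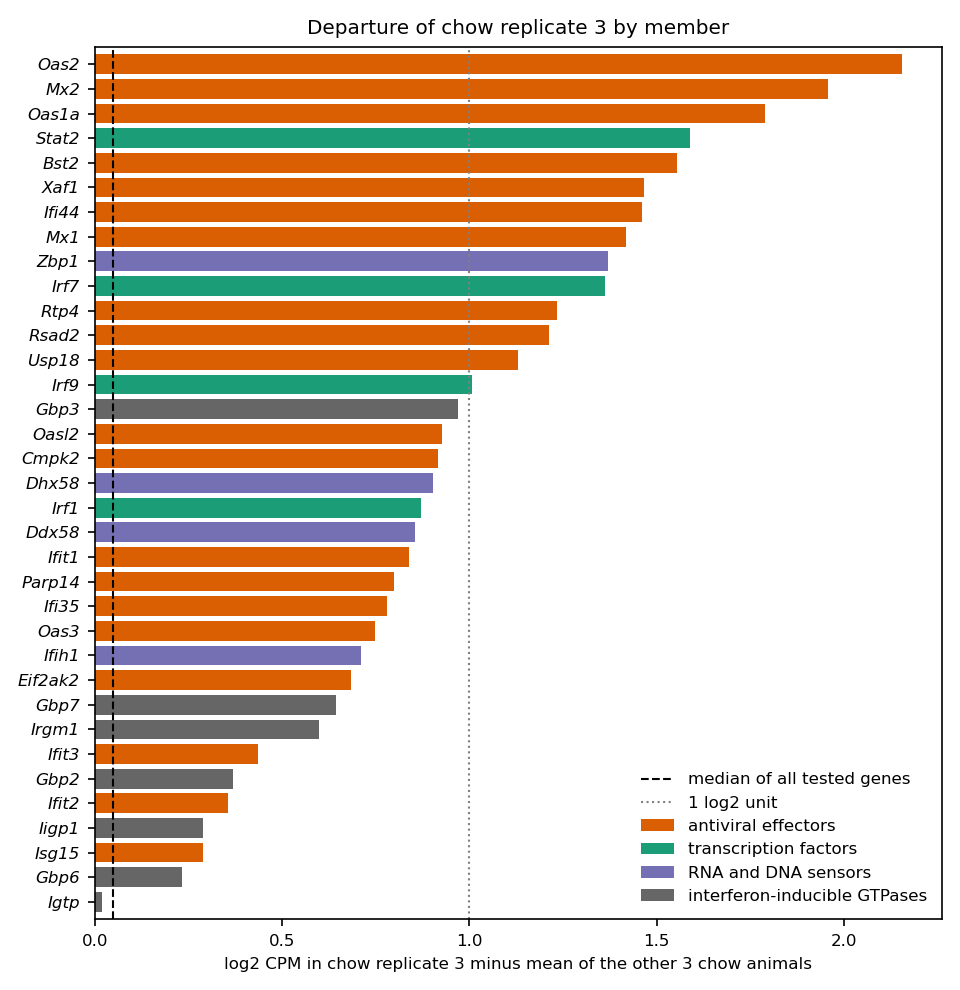
Departure of chow replicate 3 for each of the 35 genes, as log2 CPM in that animal minus the mean of the other 3 chow animals (x axis, bars from 0, coloured by role); the dashed line is the median of all tested genes and the dotted line marks 1 log2 unit. The bars run from 2.15 in Oas2 to 0.019 in Igtp, 14 pass the dotted line, and the GTPases crowd the lower end.

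Each diet had an animal in which nearly the whole set was high. In NIA it was replicate 3, where the median departure was 0.73, 34 of the 35 genes lay above the mean of the others (54.4% of all genes), 8 exceeded 1 log2 unit (10.1% of all genes) and 23 were the highest of the diet (22% of all genes). In mNIA it was replicate 2, with a median of 0.60, 34 above the mean of the others (51.8%), 7 over 1 log2 unit (7.35%) and 23 highest (37.3%). In UW it was replicate 1, with a median of 0.50, 34 above that mean (47.3%), 2 over 1 log2 unit (3.59%) and 26 highest (29.9%). The medians over all genes were 0.069 in NIA replicate 3, 0.031 in mNIA replicate 2 and -0.032 in UW replicate 1. Over all tested genes, the deviations of these animals and of chow replicate 3 from their diet means also moved together. Between pairs of them r ran from 0.476 to 0.712, so the shared pattern was not confined to the set. NIA replicate 2 shared it in part, with r of 0.522 with UW replicate 1, 0.441 with chow replicate 3 and 0.407 with mNIA replicate 2. In that library 28 of the 35 genes lay above the mean of the other NIA animals (55.8% of all genes), with a median departure of 0.40.

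Other animals were low across most of the set. In mNIA replicate 4 the median departure was -0.65, 33 of the 35 genes were below the mean of the others, and 28 were the lowest of the diet, against 19.7% of all genes; 5 were more than 1 log2 unit lower, against 2.01%. In UW replicate 4 all 35 were below the mean of the others, with a median of -0.30, 5 more than 1 log2 unit lower (1.47%) and 21 the lowest of the diet (19.3%). Of all genes, 53.2% were above that mean in mNIA replicate 4 and 54.7% in UW replicate 4. In NIA replicate 4 the median was -0.60 and 11 genes were more than 1 log2 unit lower, where 22.4% of all genes were, and in NIA replicate 1 the median was -0.38.

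Transcript length moved with the departures of the 2 shallow NIA libraries. In NIA replicate 4 the median departure was 0.16 over the 10 genes under 3000 bases of exon, -0.65 over the 12 of 3000 to 5000 bases and -1.02 over the 13 above 5000, beside 0.48, -0.078 and -0.52 over all genes of those classes. In NIA replicate 1 the order was the opposite, with -0.84, -0.55 and 0.099 for the set and -0.34, -0.011 and 0.32 for all genes. In both libraries the set lay below all genes of its class at every length. In chow replicate 3 the classes stood at 0.81, 1.29 and 0.75 for the set and at 0.092, 0.036 and 0.022 for all genes, so the set was high there at every length.

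Animals of 1 diet varied more in these genes than in genes at large. The SD of log2 CPM over 4 animals had a median over the 35 genes of 0.68 in NIA, 0.397 in UW, 0.527 in mNIA and 0.467 in chow, beside 0.546, 0.264, 0.329 and 0.32 over all tested genes. Without replicate 3 the chow value was 0.177, close to the 0.159 of all genes. The level of the set, taken as the median over its genes of log2 CPM minus the gene's mean of 16 libraries, averaged -0.15 ± 0.48 in NIA, 0.036 ± 0.29 in UW, -0.050 ± 0.39 in mNIA and 0.17 ± 0.42 in chow (SD, n = 4 each). The diets overlapped throughout, from -0.62 to 0.35 in NIA, -0.22 to 0.41 in UW, -0.51 to 0.43 in mNIA and -0.10 to 0.79 in chow.

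Of the pathway upstream of the set, the receptor and kinase genes were divided. Ifnar1, a chain of the type I receptor, had 134.0 CPM in chow replicate 3 against 67.5 to 79.6 in the other chow animals, Ifnlr1, of the type III receptor, 11.6 against 4.01 to 6.25, and the kinase Tyk2 33.6 against 18.5 to 23. Ifngr2, of the gamma receptor, was low at 75.2 CPM against 180.0 to 224.0, as was Il10rb at 92.1 against 119.0 to 141.0, and Jak1 departed by -0.57. Ifnar2 departed by 0.45, Ifngr1 by 0.38 and Jak2 by -0.17. The interferon genes themselves, such as Ifnb1 and Ifng, are not analysed here. By edgeR 0 of these receptor and kinase genes were called in any diet comparison, and in the formula mean minus chow the smallest p among them was that of Tyk2 (log2 fold change -0.42, SE 0.262, adjusted p = 0.938).

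Genes that induce or restrain the response followed in part. In chow replicate 3, 19 of 24 tested lay above the mean of the other chow animals and 8 of them by more than 1 log2 unit, with a median of 0.51. Of all tested genes, 52.7% lay above that mean in this animal and 10.8% by more than 1 log2 unit. Ikbke, a kinase that activates Irf3 and Irf7, departed by 1.77 at 4.71 CPM, Isg20, an interferon-induced exonuclease, by 1.39, and Mavs, the mitochondrial adaptor of Ifih1 and Ddx58, by -1.31 at 26.7 CPM against 55.4 to 74.7. Of 45 further interferon-responsive genes, 37 lay above that mean and 16 by more than 1 log2 unit, with a median of 0.79; Ifi203 had 273.0 CPM against 62.5 to 114.0, Oas1b 11.2 against 2.15 to 5.57, and Ifit1bl1 0.981 against 4.98 to 5.07. These lists were set with results of the data known, and 0 of their genes were called by edgeR in any comparison of diets. In the formula mean minus chow the smallest p of the further genes belonged to the GTPases Tgtp1 (log2 fold change -0.70, SE 0.262), Tgtp2 (-0.66, SE 0.253) and Gbp4 (-0.96, SE 0.383), each with an edgeR adjusted p of 0.938, and of the regulators to Ptpn2 (0.33, SE 0.148), Myd88 (-0.35, SE 0.17) and Nlrc5 (-0.73, SE 0.374), likewise at 0.938.

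Antigen presentation by MHC class I, which interferons raise through Irf1 and Nlrc5, was high in the same animals. All 15 tested genes of this group lay above the mean of the other chow animals in chow replicate 3 (52.7% of all genes), 8 by more than 1 log2 unit (10.8%), with a median departure of 1.06. H2-Q7 had 46.5 CPM there against 13.7 to 18, H2-Q4 245.0 against 83.7 to 89.4, and the immunoproteasome subunit Psmb9 19.0 against 7.10 to 8.20. Nlrc5, the transactivator of these genes, had 24.5 CPM against 6.05 to 18.9. In the formula mean minus chow all 15 fitted changes were below 0, beside 49.6% of all genes, with a median of -0.45, and 0 were called by edgeR. Without chow replicate 3, 12 of the 15 were below 0, beside 43.7% of all genes, with a median of -0.082. With all animals the smallest p was that of H2-Q6 (log2 fold change -0.71, SE 0.325, adjusted p = 0.938), followed by Tap2 and Tap1, the peptide transporter, at -0.51 and -0.69. NF-kappaB targets, induced by inflammatory cytokines, were above the mean of the other chow animals for 9 of 12 tested (52.7% of all genes), with Il1b at 3.34 CPM against 0.195 to 0.803, Bcl3 at 8.05 against 2.15 to 3.55 and Cxcl1 at 4.71 against 1.61 to 1.95. Their smallest p belonged to Nfkb2 (-0.30, SE 0.153), Birc3 and Relb, and 0 were called. The NF-kappaB list level was highest in the same animal as the set in each diet.

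**Figure D5:**
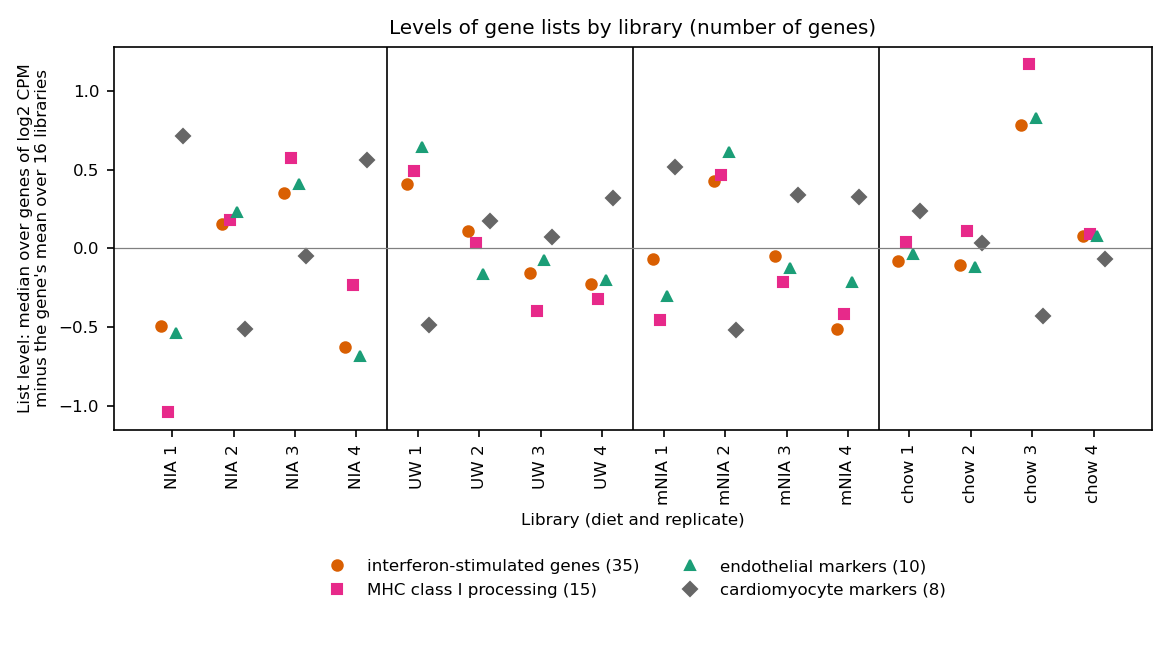
Level of 4 gene lists in each of the 16 libraries (y axis, median over the genes of log2 CPM minus the gene's mean of 16 libraries; number of genes in the legend). The interferon-stimulated, MHC class I and endothelial lists each peak in NIA replicate 3, UW replicate 1, mNIA replicate 2 and chow replicate 3, and in the last 3 of these the cardiomyocyte list is the lowest of its diet.

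Markers of some other cell types moved with the set and those of others did not. The 10 endothelial markers were highest, by list level, in the same animal as the set in all 4 diets: NIA replicate 3, UW replicate 1, mNIA replicate 2 and chow replicate 3. In chow replicate 3 all 10 lay above the mean of the other chow animals (52.7% of all genes), 5 by more than 1 log2 unit (10.8%), with a median of 0.97, and the tight-junction gene Cldn5 had 74.2 CPM against 16.1 to 17.4. Their summed level was 804 to 1770 CPM in NIA, 1260 to 2160 in UW, 1200 to 2060 in mNIA and 1350 to 2430 in chow, and no marker of the list was at 0. The summed level of the 35 genes was 462 to 896 CPM in NIA, 613 to 934 in UW, 500 to 916 in mNIA and 647 to 1240 in chow. The 8 cardiomyocyte markers went the other way in chow replicate 3, with 7 below the mean of the other chow animals and a median of -0.51; Pln, the calcium pump regulator, had 1670 CPM there against 4910 to 6340, and Actc1, cardiac actin, 3820 against 11000 to 11900.

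The 7 fibroblast markers did not follow the set in chow, where their list level was lowest in replicate 3, at -0.057, with 2 above and 5 below the mean of the others; it was highest in UW replicate 1 in UW, but in NIA replicate 2 and mNIA replicate 3 in those diets. Of 7 pericyte and smooth muscle markers, 5 lay above and 2 below the mean of the other chow animals in chow replicate 3, and their level was highest in NIA replicate 3, UW replicate 4, mNIA replicate 2 and chow replicate 3. Immune cells gave a mixed picture. In chow replicate 3, 6 of 10 macrophage markers lay above and 4 below the mean of the other chow animals, with a median of 0.079 and a summed level of 326.6 CPM inside the chow range of 282 to 364. In UW replicate 1 all 10 were above the mean of the other UW animals, with a median of 0.85, at 601.2 CPM against 252 at the lowest of that diet. T and NK cell markers were scarce: 2 of the 12 listed passed the filter, their sum was 6.4 to 13.1 CPM in NIA, 4.87 to 14.6 in UW, 7.56 to 11 in mNIA and 8.45 to 17.7 in chow, and Nkg7, Ncr1 and Gzmb were at 0 in chow replicate 3. Cd3d, of the T cell receptor complex, had 7.66 CPM in that animal against 2.54 to 2.70. By list level, several immune lists of 1 or 2 tested genes were highest of chow in replicate 3. They were T and NK cell (1.12), B cell (0.69), neutrophil (1.06) and plasmacytoid dendritic cell markers (0.57). These lists and the macrophage list were also highest of UW in replicate 1. In NIA and mNIA the highest animal differed between these lists. In chow replicate 3 all 5 erythrocyte markers were above the mean of the other chow animals too, with a median of 0.95. The part of these cell types in the levels of the set was not tested.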

How the data were processed

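Estimated counts per gene for 16 ventricle libraries were made by the authors and deposited as 1 table, and are taken from its values to be unnormalized, since library totals differ widely. In it 13% to 52.4% of the values in a library were not whole, and they were rounded for the tests. The submitters' processing notes name BWA, DESeq2 and the build mm10, without versions; the counting step and gene models are not given in the sources used here. Diets were taken from the sample titles. The 35 genes and the other gene lists were chosen with earlier results of these data known.

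Counts were analysed in R 4.3.3 with edgeR 4.0.16 (TMM scaling, filterByExpr by diet, robust quasi-likelihood test, no covariate, 1 fit over the 4 diets), with Benjamini-Hochberg adjustment over 13381 of 17737 genes (75.4%). The biological coefficient of variation was 0.278. Labels name separate animals, so p-values measure the spread between animals. Alternatives were RLE scaling, no filter, a minimum of 1 CPM exceeded in 4 or more libraries, DESeq2 1.42.0, limma-voom 3.58.1 with quality weights, a replicate block, each library left out, and, added after the data were seen, the 4 libraries of weight under 0.5 left out together. On simulated counts for UW minus chow (13247 genes), 100% of genes changed to 0.25 times, 46% to 0.5 times, 50% to 2 times and 98% to 4 times their level were recovered, with 6 false calls. The changed genes were drawn only from those of higher mean CPM, which leaves out scarce members such as Mx1 and Zbp1. Each gene had 1 spread in all simulated libraries, so the recovery does not carry over to those members or to libraries of unequal quality.

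Values in every library are given for the 12 genes of highest mean CPM among those departing by at least 1 in the library of largest median departure, and for the 4 transcription factors. From each other list the 3 genes of largest departure in that library and the 3 of smallest p in the mean of the formulas minus chow are named, with the detected receptors and kinases; a result on 1 further gene of that list is not reported here. Levels per kilobase used GENCODE vM21 exon lengths, found for 13260 of 13381 genes (99.1%), and promoters came from RefSeq GRCm38.p6. Of the 35 genes, 13 had whole counts in all libraries.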

Additional observations from a re-analysis of the deposited data

Results flagged for a closer look

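Dixon's test at the 95% level, on the ratio of the gap to the range, was applied to CPM on the linear scale. It marked single animals far from the other 3 of their diet in 20 of 140 combinations of gene and diet. Chance gives about 1 in 20 such groups for normally distributed values, which linear CPM need not be, so that rate is no measure here. Genes of 1 animal are not independent, and chow replicate 3 was singled out above on these same values. Of single genes, only the 35 were examined by this rule. The share of all tested genes that it would mark is not known, so the marks cannot be read as particular to the set. None of the 4 diets was marked for the level of the whole set.

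Chow replicate 3 was high in 11 genes. It had 5.1 CPM of Mx1 against 1.56 to 1.93 in the other chow animals, 35.7 of Irf7 against 12.5 to 14.6, 83 of Stat2 against 24.6 to 33.1 and 82.6 of Rsad2 against 33.2 to 38.5. Among other effectors it had 13.9 CPM of Ifi44 against 4.5 to 5.24, 41.8 of Bst2 against 11.5 to 15.6, 35.7 of Xaf1 against 11.1 to 14.1 and 19.2 of Rtp4 against 7.6 to 8.59. It also had 5.89 CPM of Zbp1 against 2.03 to 2.34, 21.8 of Cmpk2 against 10.8 to 12.3 and 64.0 of Eif2ak2 against 38.7 to 40.9.

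UW replicate 1 was high in 5 genes, with 4.56 CPM of Oas3 against 2.53 to 2.85 in the other UW animals, 48.6 of Irf1 against 26.1 to 27.3, 34.6 of Ddx58 against 22.9 to 23.2, 48.8 of Gbp2 against 26.9 to 30.2 and 64.6 of Parp14 against 47.1 to 49.8. In mNIA replicate 2, Oas2 had 35.1 CPM against 14.5 to 16.7 in the other mNIA animals, Irf1 54.1 against 20.9 to 26.1 and Xaf1 26.1 against 10.7 to 12.6. NIA replicate 1 was low in Oas1a, at 0.419 CPM against 4.52 to 4.98 in the other NIA animals. The causes were not tested.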

How the results depend on the processing

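Of the set, 0 genes were called in any comparison under every alternative except the one without the 4 libraries of low weight, which called 1 in NIA minus chow, 7 in mNIA minus NIA and 1 (Oas2) in the test of any diet difference. There Oas2 in NIA minus chow was 0.98, and in mNIA minus NIA Oas2 was -0.92, Irf1 -0.77, Stat2 -0.80 and Bst2 -0.81, where the fit of all libraries gave -0.41 for Oas2 in NIA minus chow and 0.00018 to 0.11 for the others. DESeq2 gave an adjusted p to 1 of the 35 genes in NIA minus chow and to 18 in UW minus NIA.

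Median log2 fold changes of the set moved to 0.22 in NIA minus chow, 0.044 in the formula mean minus chow, -0.27 in UW minus NIA and -0.26 in mNIA minus NIA under voom weights. Without the 4 libraries they were 0.29 in NIA minus chow, 0.10 in UW minus chow, 0.098 in the formula mean minus chow, -0.33 in mNIA minus NIA and -0.25 in mNIA minus UW. Leaving out 1 library gave -0.41 to 0.077 in NIA minus chow, -0.31 to 0.091 in UW minus chow, -0.44 to 0.067 in mNIA minus chow, -0.30 to 0.090 in the formula mean minus chow, -0.14 to 0.19 in UW minus NIA, -0.17 to 0.25 in mNIA minus NIA and -0.24 to 0.14 in mNIA minus UW.

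Genes called in all by DESeq2 were 127 in NIA minus chow, 1 in UW minus chow, 0 in mNIA minus chow, 375 in UW minus NIA, 3 in mNIA minus NIA, 1 in mNIA minus UW and 174 for any diet difference. Voom weights called 28 in NIA minus chow, 1 in UW minus chow, 4 in the formula mean minus chow, 916 in UW minus NIA, 1979 in mNIA minus NIA, 1 in mNIA minus UW and 1980 for any difference. Without the 4 libraries the calls were 224 in NIA minus chow, 1 in UW minus chow, 0 in mNIA minus chow, 1627 in UW minus NIA, 3184 in mNIA minus NIA and 1374 for any difference. Leaving out 1 library gave 0 to 116 in NIA minus chow, 0 to 1 in mNIA minus chow and in mNIA minus UW, 0 to 217 in UW minus NIA and 0 to 110 for any difference, the highest counts of NIA minus chow, UW minus NIA and any difference each being without NIA replicate 2. The causes were not tested.

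The replicate block called 0 genes in mNIA minus chow, against 1 without it. Replicate numbers do not pair the animals: same-numbered libraries deviated together with r of -0.579 to 0.607 over 24 pairs, 9 of them over 0.1, and 2 of 16 libraries correlated best with their own number. Depth limits Mx1 most, with counts under 10 in 9 libraries, then Mx2 in 6 and Dhx58 and Zbp1 in 5 each.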
